A study of Mus musculus with 6 samples.

Results

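The genes described here encode the constitutive subunits of the proteasome in 2 populations of mouse intestinal crypt cells. Members were taken by gene symbol, as Psma, Psmb, Psmc and Psmd followed by a number, without the interferon-inducible catalytic subunits Psmb8, Psmb9 and Psmb10. The rule found 35 of the 23565 genes in the table: 8 alpha and 7 beta subunits of the core particle, and 6 ATPase and 14 non-ATPase genes of the regulatory particle. All members except Psma8, an alpha subunit known from testis, passed the filter on low counts, which left 34 among the 12439 genes tested. Psma8 had 5, 0 and 0 counts in Hopx-CreER libraries 1, 2 and 3 and 3, 3 and 0 in Lgr5-CreER libraries 1, 2 and 3, and was given no fold change. The symbol rule also takes in Psmd5, Psmd9 and Psmd10, which are known as assembly chaperones of the regulatory particle and are not part of the finished complex.

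RNA was sequenced from 3 libraries per group, and according to the study description 3 mice per genotype were injected. Hopx-CreER cells were tdTomato-positive cells of HopXCreER::Rosa26LSL-tdTomato mice, in which a tamoxifen-dependent Cre is made from the Hopx locus. Lgr5-CreER cells were positive for eGFP and tdTomato and came from Lgr5eGFP-IRES-CreER::Rosa26LSL-tdTomato mice, whose Lgr5 allele makes eGFP together with the Cre. Every mouse carried the Rosa26 tdTomato reporter and received 1 mg of tamoxifen, and crypts of the small intestine were taken 16 h later. The sources used here give no age, sex or strain background. The groups thus differ in Cre allele, in the eGFP gate and in the cells labelled, and these cannot be told apart.

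The proteasome is the protease that degrades proteins tagged with ubiquitin. Its core particle is a barrel of stacked rings: the outer alpha rings form the gate, and the inner beta rings hold the proteolytic sites of Psmb5, Psmb6 and Psmb7. The regulatory particle caps the barrel, where a ring of Psmc ATPases unfolds the substrate and Psmd subunits bind ubiquitin, remove it and hold the complex together. In the crypt, cells that divide fast and cells that secrete large amounts of protein lie side by side, and both rely on protein quality control.

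Library totals ran from 10839306 to 14570555 counts. Levels are given as CPM, the counts per 1e+06 counts of a library whose total is scaled by edgeR's TMM factor, and 1 count was worth 0.0669 to 0.0928 CPM. Markers of the Lgr5 gate followed the labels: all 6 Lgr5 stem cell markers were lower in Hopx-CreER cells, with summed levels of 2630 to 4380 CPM against 9060 to 9670 CPM. Hopx-CreER libraries held more RNA of differentiated cells, with all 5 tested Paneth, 5 goblet, 5 enteroendocrine and 6 enterocyte markers higher and 4 of 5 tuft markers. Summed Paneth markers ran from 10600 to 22700 CPM in Hopx-CreER and from 1190 to 2350 CPM in Lgr5-CreER libraries. The corresponding ranges were 5650 to 7640 and 1660 to 2040 CPM for goblet, 1960 to 4040 and 115 to 192 CPM for enteroendocrine, 773 to 2160 and 148 to 232 CPM for enterocyte, and 124 to 555 and 66.2 to 91.3 CPM for tuft markers. All 5 epithelial markers were tested and 2 of them, the keratins Krt8 and Krt18, were higher. Markers of leukocytes summed to at most 2.97 CPM, those of endothelium to at most 3.55 CPM, those of erythroid cells to at most 0.649 CPM and those of mesenchyme to at most 0.173 CPM, with Itgax, Cdh5, Hba-a1 and Col1a1 at 0 in every library. Only 2 of 5 mesenchyme and 2 of 3 endothelium markers were among the genes in the table, so these 2 sums cover part of their lists. The part of this difference in cell makeup in the values below was not tested. In bulk libraries, fewer cells of a type and less RNA per cell cannot be told apart. Libraries could not be matched to single mice from the labels, and p-values measure the spread between these libraries, which may be technical.

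The comparison asked whether proteasome subunit transcripts differed between cells marked by Hopx and cells marked by Lgr5. None of the 34 tested subunits passed the threshold in either direction by edgeR's quasi-likelihood test (adjusted p under 0.05 over all genes tested), with adjusted p-values from 0.159 to 0.952. In the same fit 12.8% of all tested genes passed, 9.45% higher and 3.3% lower in Hopx-CreER cells. That split was 1176 higher against 410 lower genes, and it became 938 against 729 with library totals alone and 1044 against 1037 with an offset for GC content. At an unadjusted p under 0.05 the count was 1 subunit by edgeR, against 27.3% of all genes. By limma-voom the counts were 0 adjusted and 1 unadjusted, and by DESeq2 0 and 0. On the log2 scale, the subunits' fold changes of Hopx-CreER over Lgr5-CreER ran from -0.34 to 0.288 with a median of 0.0789, beside a median of -0.0331 over all genes. The point estimate was above 0 for 24 subunits and below 0 for 10, but above 0 for only 13 with library totals alone, where the median of all genes moved to -0.147.

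The precision of these estimates can be read from their 95% intervals. The whole interval lay within a 1.5-fold change in either direction for 32 of the 34 subunits, or 94.1%, against 28.3% of all tested genes. Among the 4989 genes with a mean CPM at least as high as the least abundant subunit, the share was 57.5%. The exceptions among the subunits were Psmc6 and Psmd1. The median size of the log2 fold change, regardless of sign, was 0.122 for the subunits, 0.31 for all genes and 0.219 for genes in that abundance range. The median SD of log2 CPM over the 6 libraries was 0.123 for the subunits, 0.335 for all genes and 0.202 in that range. These shares and medians describe the subunits and were given no test.

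**Figure D1:**
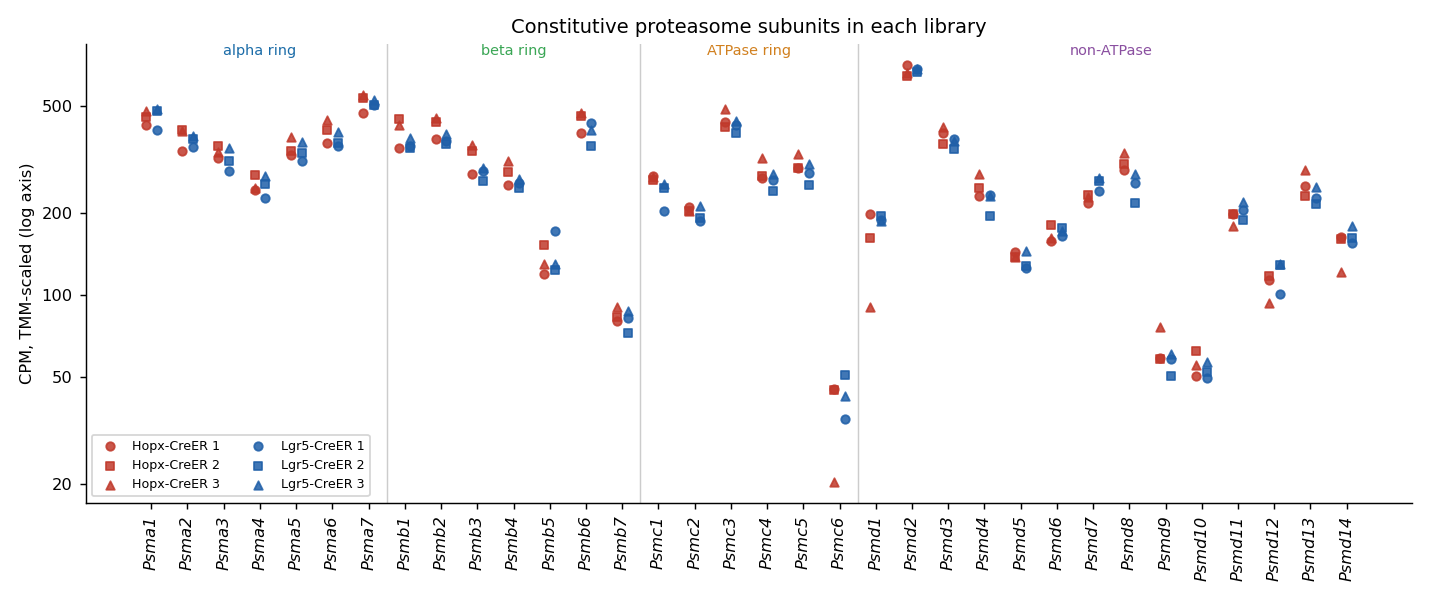
TMM-scaled CPM (log axis) of the 34 tested subunits in the 3 Hopx-CreER (red) and 3 Lgr5-CreER (blue) libraries, with 1 symbol per library number and subunits ordered by ring. Red and blue points lie on top of each other for most subunits, and the red triangles of Psmc6 and Psmd1 (Hopx-CreER library 3) lie far below the other points.

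**Figure D2:**
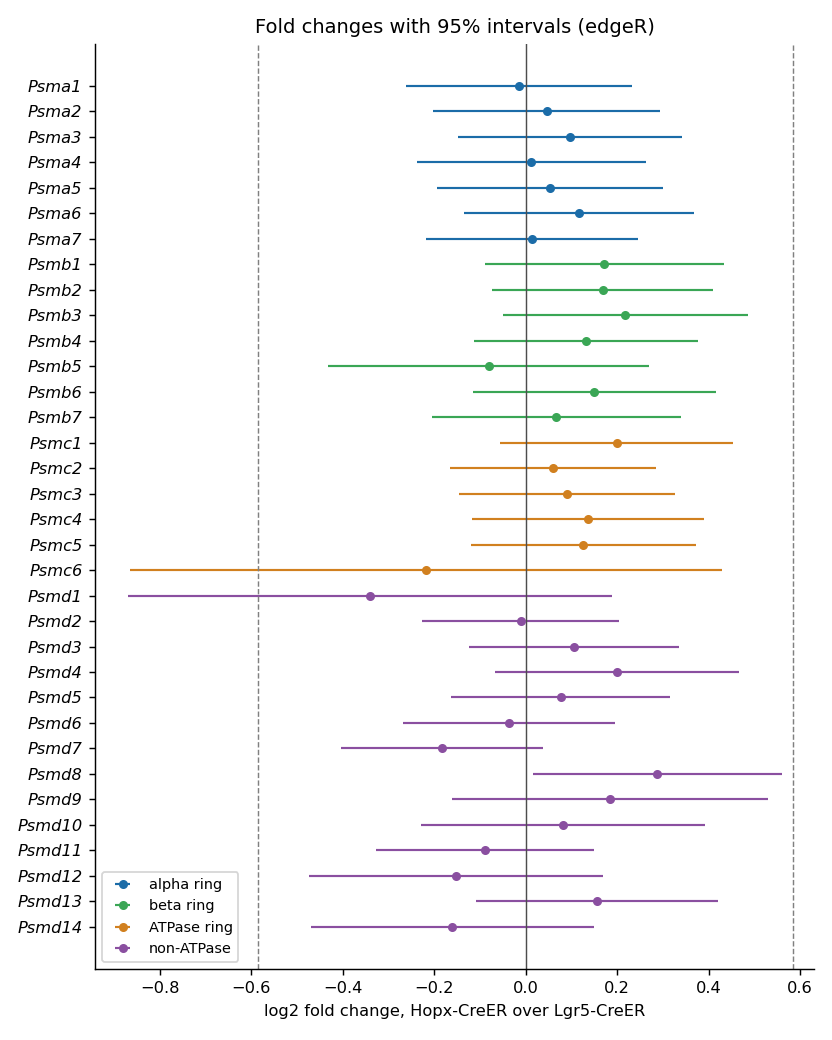
Log2 fold change of each subunit, Hopx-CreER over Lgr5-CreER, with its 95% interval from edgeR, coloured by ring; dashed lines mark a 1.5-fold change. Intervals of all subunits except Psmc6 and Psmd1 stay between the dashed lines, and that of Psmd8 lies just above 0.

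By the median size of its log2 fold changes without an offset for GC content, 0.046, the alpha ring differed least of the 4 classes. None of its 7 tested subunits passed the test, their values ran from -0.0144 to 0.117, and 6 of 7 were above 0. Psma6 had the highest value in the ring. It was at 363.6, 407.5 and 443.1 CPM in Hopx-CreER libraries 1 to 3 and at 355.6, 363.0 and 401.0 CPM in Lgr5-CreER libraries 1 to 3, so the groups overlapped. Its log2 fold change was 0.12 ± 0.11 (SE; edgeR adjusted p = 0.536). Psma1 had the lowest value, with 424.1, 455.5 and 476.0 CPM in Hopx-CreER and 407.3, 476.4 and 485.4 CPM in Lgr5-CreER libraries. Its log2 fold change was -0.01 ± 0.11 (SE; edgeR adjusted p = 0.944), and its 95% interval ran from -0.26 to 0.23. In Lgr5-CreER cells Psma7 was the most abundant alpha subunit per length, and its 6 libraries ran from 468.1 to 545.5 CPM. With the offset for GC content, the log2 fold changes of Psma6 and Psma1 were 0.185 and 0.168. Psma3, of the same ring, then had the highest value of all subunits, at 0.334.

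In the beta ring, none of 7 subunits passed the test, 6 of 7 were above 0 and the median log2 fold change was 0.15. Psmb3, a structural subunit without a proteolytic site, had the highest value in the ring. It stood at 280.6, 341.0 and 358.3 CPM in Hopx-CreER and at 285.7, 263.2 and 293.7 CPM in Lgr5-CreER libraries. Hopx-CreER libraries 2 and 3 were above every Lgr5-CreER library and library 1 was among them. This gave a log2 fold change of 0.22 ± 0.12 (SE; edgeR adjusted p = 0.275).

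The 3 catalytic subunits were described whatever their result. Psmb6, which carries the caspase-like activity, lies on chromosome 11 (70525367 to 70527858, plus strand, GRCm38). It was measured at 394.8, 456.4 and 470.5 CPM in Hopx-CreER and at 430.4, 353.3 and 407.3 CPM in Lgr5-CreER libraries. The means were 440.6 ± 40.2 and 397.0 ± 39.6 CPM (SD, n = 3 each), and the groups overlapped. On the log2 scale the difference was 0.15 ± 0.12 (SE), with a 95% interval from -0.12 to 0.42 and an edgeR adjusted p of 0.45.

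Psmb7, which carries the trypsin-like activity, lies on chromosome 2 (38588036 to 38644087, minus strand). It was measured at 79.9, 83.1 and 90.1 CPM in Hopx-CreER and at 81.9, 72.6 and 87.0 CPM in Lgr5-CreER libraries. The groups overlapped and the log2 fold change was 0.07 ± 0.12 (SE; 95% interval -0.21 to 0.34, edgeR adjusted p = 0.753). Its exons overlap those of the gene Nek6 on the opposite strand by 253 bases. Nek6 had 19395 counts over the 6 libraries against 6343 for Psmb7, and the library kit named in the labels does not mark the strand, so the split of reads in that stretch is uncertain.

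Psmb5, which carries the chymotrypsin-like activity and is the main target of proteasome inhibitor drugs, lies on chromosome 14 (54614119 to 54618022, minus strand). It was measured at 119.3, 153.5 and 129.7 CPM in Hopx-CreER and at 172.2, 123.3 and 129.8 CPM in Lgr5-CreER libraries. Lgr5-CreER library 1 was the highest of the 6, and the other libraries of the groups overlapped. The means were 134.1 ± 17.5 and 141.8 ± 26.6 CPM (SD, n = 3 each), and the log2 fold change was -0.08 ± 0.16 (SE; 95% interval -0.43 to 0.27, edgeR adjusted p = 0.77).

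Psmb5 has a near-identical copy in the table, the processed pseudogene Gm3375 on chromosome 7 (3181093 to 3181888, plus strand). The copy differs from the Psmb5 coding sequence at 8 of 792 bases. A stretch of 120 bases of Psmb5 exon 2 of 3 and the matching stretch of the copy are shown because they make plain how few positions can assign a read. Capitals mark the 3 bases that differ, and both are written along the coding strand, from chr14:54616633-54616752 (minus strand) and chr7:3181361-3181480 (plus strand).
Psmb5: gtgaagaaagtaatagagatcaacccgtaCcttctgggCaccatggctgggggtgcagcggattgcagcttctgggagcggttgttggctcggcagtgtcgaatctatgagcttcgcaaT
Gm3375: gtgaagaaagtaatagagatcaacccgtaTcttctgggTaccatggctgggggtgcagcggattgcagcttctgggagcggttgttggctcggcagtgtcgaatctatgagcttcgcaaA

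Gm3375 was at 383, 342 and 328 counts in Hopx-CreER and at 16, 331 and 426 counts in Lgr5-CreER libraries, or 28.9, 28.9 and 30.4 CPM against 1.07, 28.6 and 29.3 CPM. Lgr5-CreER library 1, where the copy was lowest, was the library with the highest Psmb5 value. Of the reads given to Psmb5 and its copies over the 6 libraries, copies held 14.6%. With the counts of the copy added to Psmb5, an alternative chosen after the data were seen, the sums were 148.1, 182.4 and 160.1 CPM in Hopx-CreER and 173.3, 151.9 and 159.1 CPM in Lgr5-CreER libraries. The means were then 163.5 ± 17.4 and 161.4 ± 10.9 CPM (SD, n = 3 each). With these sums the log2 fold change became 0.02 ± 0.12 (SE; 95% interval -0.24 to 0.28, edgeR adjusted p = 0.933), so that its sign turned and the interval narrowed. The sign also turned, to 0.08, with Lgr5-CreER library 1 left out, and to 0.01 with Hopx-CreER library 1 left out. Whether reads of Psmb5 were assigned to the copy, or reads of the copy to Psmb5, was not tested.

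**Figure D3:**
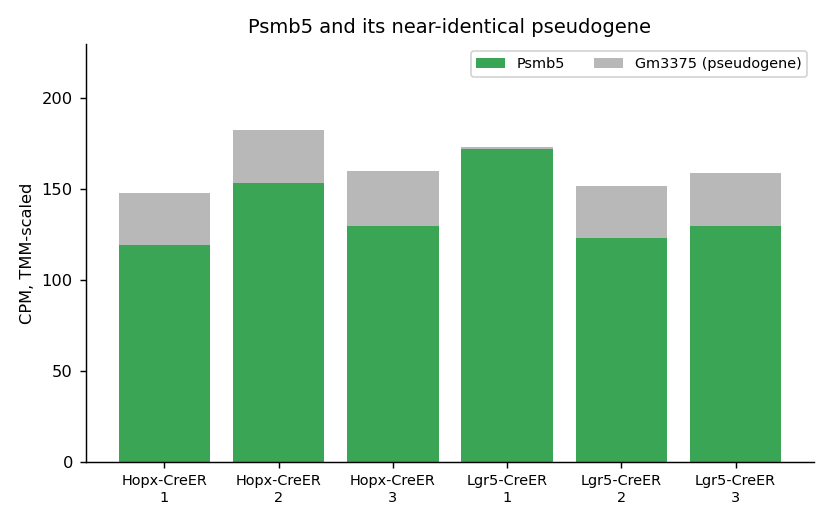
Stacked TMM-scaled CPM of Psmb5 (green) and of the pseudogene Gm3375 (grey) in each of the 6 libraries. Gm3375 takes 28.6 to 30.4 CPM in 5 libraries and 1.07 CPM in Lgr5-CreER library 1, where the green bar is the highest.

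The constitutive catalytic subunits share their places in the ring with inducible partners, and the pairs can be set side by side per kilobase of the longest coding transcript. Psmb8 made up 57.4%, 50.9% and 58.0% of the Psmb5 and Psmb8 total in Hopx-CreER and 37.4%, 63.7% and 64.7% in Lgr5-CreER libraries. Psmb9 made up 24.6% to 28.1% of the Psmb6 and Psmb9 total in Hopx-CreER and 18.0% to 32.2% in Lgr5-CreER libraries. Psmb10 made up 81.0% to 82.0% of the Psmb7 and Psmb10 total in Hopx-CreER and 76.8% to 81.2% in Lgr5-CreER libraries. The shares of Psmb8 and Psmb10 rest on Psmb5 and Psmb7 values whose split of reads with Gm3375 and Nek6 is uncertain. In all 3 pairs Lgr5-CreER library 1 had the lowest share of the inducible partner. Libraries 2 and 3 of that group, whose column names have a number in common, may not be independent of each other. The shares depend on the transcript length taken: with the median coding length, Psmb8 made up 62.9% to 69.4% in Hopx-CreER and 49.5% to 75.0% in Lgr5-CreER libraries, and Psmb9 50%, 45.5% and 46.1% in Hopx-CreER and 35.9% to 54.8% in Lgr5-CreER libraries, while Psmb10 kept its shares.

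In the regulatory particle, none of the 6 ATPases passed the test, and 5 of 6 were above 0 with a median log2 fold change of 0.108. Psmc1 had the highest value. It was at 274.3, 265.9 and 273.5 CPM in Hopx-CreER and at 204.3, 247.5 and 257.3 CPM in Lgr5-CreER libraries, and every Hopx-CreER library was above every Lgr5-CreER library. The log2 fold change was 0.20 ± 0.11 (SE; 95% interval -0.06 to 0.45, edgeR adjusted p = 0.296). Groups that do not overlap were found for 3 of the 34 subunits and for 34.9% of all genes. Psmc1, Psmc2, Psmc3, Psmc4 and Psmc5 lay between 0.06 and 0.20 on the log2 scale.

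Psmc6 had the lowest log2 fold change in the ATPase ring. It was at 44.8, 44.6 and 20.4 CPM in Hopx-CreER and at 34.9, 50.6 and 42.5 CPM in Lgr5-CreER libraries. Hopx-CreER library 3 alone was low, and the other Hopx-CreER libraries lay within the Lgr5-CreER range. The log2 fold change was -0.22 ± 0.29 (SE; 95% interval -0.87 to 0.43, edgeR adjusted p = 0.658), and without Hopx-CreER library 3 it was 0.05.

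The 14 non-ATPase genes were split evenly in sign, with 7 above and 7 below 0, a median log2 fold change of 0.0329 and none past the test. Psmd8, a lid subunit, had the highest value of all subunits. It was at 288.2, 303.3 and 333.0 CPM in Hopx-CreER and at 258.6, 218.9 and 279.6 CPM in Lgr5-CreER libraries, with no overlap between the groups. The means were 308.2 ± 22.8 and 252.4 ± 30.9 CPM (SD, n = 3 each). Hopx-CreER over Lgr5-CreER, the log2 fold change was 0.29 ± 0.12 (SE; 95% interval 0.02 to 0.56), with an edgeR p of 0.0401 and an adjusted p of 0.159. This was the subunit with an unadjusted p under 0.05. With the offset for GC content, the log2 fold change of Psmd8 was 0.138, and Psma3 had the highest value, at 0.334.

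Psmd1, a large scaffold subunit of the base, had the lowest value of all subunits. It was at 198.3, 162.4 and 90.4 CPM in Hopx-CreER and at 188.7, 196.1 and 186.7 CPM in Lgr5-CreER libraries. Hopx-CreER library 3 was the lowest, library 1 was the highest of the 6, and the groups overlapped. The log2 fold change was -0.34 ± 0.24 (SE; 95% interval -0.87 to 0.19, edgeR adjusted p = 0.389), and without Hopx-CreER library 3 it was -0.09.

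Some other regulatory particle genes were singled out after their values were seen. Psmd7, the structural partner of the deubiquitinase Psmd14, was at 218.6, 234.2 and 229.0 CPM in Hopx-CreER and at 241.5, 263.2 and 269.3 CPM in Lgr5-CreER libraries, so all Hopx-CreER libraries were below all Lgr5-CreER libraries. Its log2 fold change was -0.18 ± 0.10 (SE; edgeR adjusted p = 0.268). Psmd14, which cleaves ubiquitin chains from the substrate, was at 163.0, 160.8 and 121.3 CPM against 155.2, 161.9 and 180.3 CPM, with library 3 again the lowest in Hopx-CreER. Psmd4, a ubiquitin receptor, was at 231.7, 248.4 and 278.6 CPM against 233.7, 194.9 and 231.5 CPM (log2 fold change 0.20, edgeR adjusted p = 0.314). Psmd2, the other large scaffold of the base, had the smallest SD of log2 CPM over the 6 libraries among the subunits, 0.0465. Its libraries ran from 644.4 to 706.6 CPM, and its log2 fold change was -0.01 ± 0.10 (SE; edgeR adjusted p = 0.952). Its 95% interval ran from -0.23 to 0.21.

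The core and regulatory particles were then compared within each library. Over the 14 tested core subunits the median log2 level relative to the Lgr5-CreER mean was -0.0388, 0.133 and 0.176 in Hopx-CreER and -0.0216, -0.0421 and 0.0685 in Lgr5-CreER libraries. Over the 20 regulatory genes it was 0.061, 0.0454 and 0.0605 in Hopx-CreER and -0.0187, -0.0494 and 0.105 in Lgr5-CreER libraries. The core median minus the regulatory median was -0.0998, 0.0874 and 0.115 in Hopx-CreER libraries, so library 1 was below 0 and libraries 2 and 3 above it. In Lgr5-CreER libraries the difference stayed between -0.036 and 0.00736, inside the Hopx-CreER range. These levels carry no offset for GC content.

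Summed levels were compared in the same way. The core subunits summed to 4338, 4972 and 5070 CPM in Hopx-CreER and to 4400, 4389 and 4742 CPM in Lgr5-CreER libraries. The regulatory genes summed to 4708, 4600 and 4761 CPM in Hopx-CreER and to 4465, 4367 and 4771 CPM in Lgr5-CreER libraries. These sums are not corrected for transcript length, so their ratio is read only between libraries. The ratio, core over regulatory, was 0.922, 1.08 and 1.07 in Hopx-CreER and 0.985, 1.01 and 0.994 in Lgr5-CreER libraries, with means of 1.02 ± 0.0878 and 0.995 ± 0.00983 (SD, n = 3 each). The difference between these means was smaller than the SD of the Hopx-CreER libraries. All 34 subunits together summed to 9046.5, 9571.9 and 9830.6 CPM in Hopx-CreER and to 8864.4, 8755.5 and 9512.8 CPM in Lgr5-CreER libraries. These ranges overlapped. The sums are not shares of a library, because scaled CPM do not add up to the same total in each library. Over all tested genes they added up to 1029200 to 1060400 in Hopx-CreER and to 934950 to 974130 in Lgr5-CreER libraries.

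Among the rings, the beta ring had the widest spread over Hopx-CreER libraries. Its median relative level was -0.00621, 0.206 and 0.25 in Hopx-CreER and 0.026, -0.0922 and 0.0662 in Lgr5-CreER libraries, and Hopx-CreER libraries 2 and 3 were above all others. The alpha ring medians were -0.0561, 0.128 and 0.101 in Hopx-CreER and -0.106, -0.012 and 0.105 in Lgr5-CreER libraries, which overlapped over almost the whole range.

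**Figure D4:**
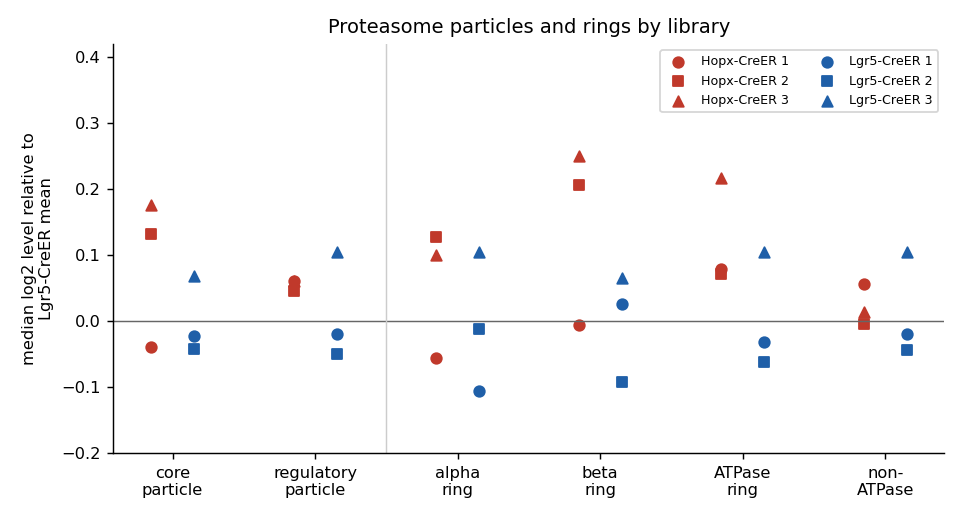
Median log2 level relative to the Lgr5-CreER mean over the subunits of each particle (left) and of each ring (right), 1 point per library, Hopx-CreER in red and Lgr5-CreER in blue. Hopx-CreER libraries run from -0.0388 to 0.176 for the core and lie between 0.0454 and 0.061 for the regulatory particle, and in both the Lgr5-CreER libraries overlap them.

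To set different subunits side by side, levels were taken per kilobase, as CPM divided by the length of the longest coding transcript. In Lgr5-CreER cells Psmb6 was the most abundant, at 497.5 ± 49.6 CPM per kb (SD, n = 3), followed by Psma7 at 441.2, Psmb2 at 435.2, Psma1 at 380.0 and Psmb3 at 366.7 CPM per kb. Psma7 (SD 11.8) and Psmb2 (SD 19.1) did not differ beyond their SDs, nor did Psma1 (SD 35.6) and Psmb3 (SD 20.7), while Psmb6 stood above Psma7 by more than its SD. Psmb5 was 17th at 157.7 ± 29.5 and Psmb7 28th at 69.4 ± 6.27 CPM per kb. The 3 catalytic subunits, present in equal number in the ring, thus had unequal measured levels. The split of reads between Psmb5 and Gm3375 and between Psmb7 and Nek6 is uncertain, which limits these values. Psmc6 was last at 19.1 ± 3.52 CPM per kb, while the other ATPases lay between 110.9 and 229.9 CPM per kb.

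The class medians per kb in Lgr5-CreER cells were 272.4 for alpha, 218.0 for beta, 165.4 for ATPase and 112.0 for non-ATPase genes. In Hopx-CreER cells the order was nearly the same, with a Spearman coefficient of 0.991 over the 34 subunits, which share their transcript lengths in both groups. Psmb6, Psmb5, Psmb7 and Psmc6 stood at 552.1 ± 50.4, 149.2 ± 19.5, 72.7 ± 4.47 and 16.4 ± 6.28 CPM per kb there (SD, n = 3 each). The values depend on the transcript length taken: with the median length of the coding transcripts, Psmd2 moved from 228.3 to 1026 CPM per kb, Psma3 from 110.9 to 367.5 and Psmd11 from 72.0 to 286.2. Psmb6, Psmb7 and Psmc6 kept their values, and Psmb5 moved to 186.4 CPM per kb.

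Hopx-CreER library 3 stood apart for a few subunits. Its column name is the only one with a further mark, 4-5k, whose meaning the labels do not give. Its log2 CPM minus the mean of libraries 1 and 2 was -1.13 for Psmc6, -0.989 for Psmd1, -0.417 for Psmd14 and -0.303 for Psmd12, and no other subunit was below -0.25. Psmd9 was the highest, at 0.386. The GC content of the longest transcript was 37.0%, 46.9%, 43.2% and 47.9% for the first 4 of these, against a median of 49.4% over the subunits. Across the 34 subunits, this deviation was higher at higher GC content, with a Spearman coefficient of 0.555, and across 12426 genes the coefficient was 0.473. The log2 fold change itself had a Spearman coefficient with GC of 0.439 over the subunits and 0.25 over all genes. With transcript length the coefficients were -0.286 and -0.371 for the deviation and -0.179 and -0.305 for the log2 fold change. The length was that of the longest coding transcript for the subunits and of the longest transcript of any type for all genes. The deviation was computed with a prior count of 2 for all genes and without it for the subunits, so the paired coefficients are not fully alike. These coefficients are across genes, which share the libraries and are not independent replicates. Cell markers differed in library 3 too, with Lyz1 at 10448 CPM against 3918.9 and 4928.5 CPM in libraries 1 and 2. Dclk1 was at 16.976 CPM against 137.03 and 124.21 CPM. The parts of GC content, length and cell makeup were not tested. Without Hopx-CreER library 3, all 34 intervals lay within 1.5-fold and the subunit with the lowest log2 fold change was Psmd7 at -0.203. With an offset for GC content in each library, the median log2 fold change was 0.133 for core and -0.00178 for regulatory genes. The core median minus the regulatory median was then 0.135, against 0.00313 without the offset, and 0 subunits passed the test.

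**Figure D5:**
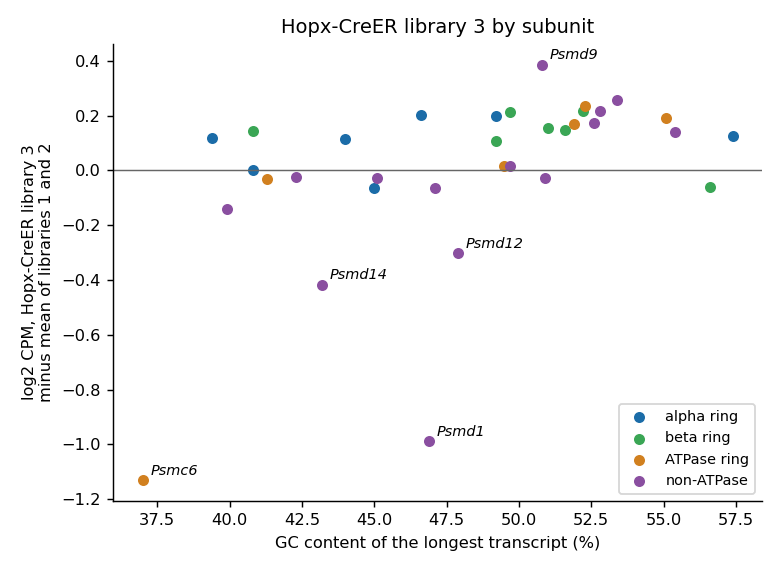
Log2 CPM of Hopx-CreER library 3 minus the mean of Hopx-CreER libraries 1 and 2 (vertical axis) against GC content of the longest transcript in percent (horizontal axis), 1 point per subunit, coloured by ring. Psmc6 at -1.13 and Psmd1 at -0.989 lie far below the other subunits, most of which lie within 0.25 of 0.

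Near-identical sequence and overlapping exons limit some single values. Copies were counted among annotated transcripts, at 95% identity or more over at least 200 bases. Of the 34 subunits, 8 had such a copy at another place in the genome. Another 3 (Psmb7, Psmd1 and Psmd13) shared such a stretch only with a gene that overlaps them. In 7 subunits the genes with such sequence held over 1% of the pooled counts. These were Psmb5 with 14.6%, Psma3 with 4.44%, Psma5 with 1.51%, Psmd11 with 1.2% and Psma4 with 1.1%, and, through overlapping opposite-strand genes, Psmb7 with 75.4% (Nek6) and Psmd13 with 7.74% (Sirt3). Exons of 9 subunits overlapped another gene, of which 8 had an overlap on the opposite strand. With the counts of pseudogenes added to their parent subunits, 0 of 34 subunits passed the test.

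Promoters were read because subunit genes are known to be induced together by the factor NRF1 (Nfe2l1), and some by NRF2 (Nfe2l2), through antioxidant response elements. The letters TGACNNNGC were searched on both strands of the 250 bases before each RefSeq start (GRCm38.p6), and 28 tested subunits had a promoter in that table. The letters were found for Psmb5, Psmb6, Psmc6, Psmd9 and Psmd12, which is 17.9% of these subunits against 11.5% of 27025 genes with a promoter. A CCAAT box, searched as CCAAT on both strands, was found for 11 subunits, or 39.3%, against 37.5% of genes. The median log2 fold change was -0.0805 for subunits with the first motif and 0.0765 for those without it. The first of these is the value of Psmb5 itself, 1 of 5 subunits with the motif. Psmb6 was at 0.15, Psmc6 at -0.22, Psmd9 at 0.18 and Psmd12 at -0.15. Psmb5 moved to 0.0185 with pseudogene counts added, and Psmc6 to 0.0537 without Hopx-CreER library 3. The difference between these medians was not tested. For the catalytic subunits Psmb5 and Psmb6 the stretch from 40 bases before the motif up to the start is shown, 5′ to 3′ along the gene, with the motif in capitals, from chr14:54617996-54618082 (minus strand) and chr11:70525308-70525356 (plus strand). The motif begins 47 bases before the start in Psmb5 and 9 bases before it in Psmb6.
Psmb5: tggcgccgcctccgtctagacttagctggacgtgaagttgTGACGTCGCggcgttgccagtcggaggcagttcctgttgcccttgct
Psmb6: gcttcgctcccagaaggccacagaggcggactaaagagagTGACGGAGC

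Other genes of the ubiquitin and proteasome pathway came from 8 lists with 53 genes, of which 51 were tested. Of these, 3 were higher and 0 lower in Hopx-CreER cells, a share of 5.88% beside the 12.8% called among all tested genes. Nqo1 and Mafk, which were among the 3, are given below. No member passed among 3 immunoproteasome subunits, a list of 5 with the activators and the inhibitor Psmf1, 5 assembly chaperones, 2 constitutive subunits with other symbols, 11 shuttle factors and proteasome-bound enzymes, and 7 genes of the p97 (Vcp) complex, the ATPase that extracts ubiquitinated proteins.

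In the list around the proteasome gene regulators NRF1 and NRF2, 2 of 13 genes were higher and 11 did not pass, where 9.45% of all tested genes were higher, so the count is close to the background. Nqo1, a quinone reductase and textbook target of NRF2, was at 62.8, 71.8 and 91.5 CPM in Hopx-CreER and at 25.1, 29.3 and 35.3 CPM in Lgr5-CreER libraries, without overlap. Its log2 fold change was 1.33 ± 0.19 (SE; edgeR adjusted p = 0.00261). Mafk, a small Maf protein that pairs with NRF1 and NRF2 on DNA, was at 111.94, 96.985 and 152.88 CPM against 56.0, 59.3 and 51.5 CPM, with a log2 fold change of 1.12 ± 0.17 (SE; edgeR adjusted p = 0.00386). Nfe2l1 itself was at 145.2, 110.4 and 132.7 CPM against 108.0, 123.3 and 119.7 CPM, which overlapped (log2 fold change 0.15, edgeR adjusted p = 0.505). Nfe2l2 was at 218.9, 199.8 and 134.2 CPM against 143.8, 134.5 and 167.7 CPM (log2 fold change 0.31, edgeR adjusted p = 0.3). Hopx-CreER library 3 was again the low one, and without it the log2 fold change was 0.48 and passed the test (edgeR adjusted p = 0.0207). Psmb5 and Psmb6, whose promoters hold the letters of the element, did not pass the test. The same search returned the letters for Gclm, which did not pass (log2 fold change 0.35, edgeR adjusted p = 0.177), and no site for Nqo1. Sites were looked up for the subunits, Gclm and Nqo1, of which only Nqo1 was called, and not for Mafk. The letters thus cannot be weighed against the calls here, and use of the element was not tested.

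Where a list had no gene past the test, the gene with the smallest p was taken. Rad23b, a shuttle factor that carries ubiquitinated proteins to the proteasome, was at 49.3, 52.8 and 35.6 CPM in Hopx-CreER and at 67.8, 65.0 and 64.6 CPM in Lgr5-CreER libraries, without overlap (log2 fold change -0.52 ± 0.16 SE, edgeR adjusted p = 0.0715). By DESeq2 it passed, with an adjusted p of 0.0267. The median of its list of 11 genes was -0.339, and it was -0.155 without Hopx-CreER library 3, in which 8 of the 11 genes lay more than 0.25 below the mean of libraries 1 and 2 on the log2 scale, Ecpas the most at -1.43. The part of that library in the list's values was not tested further. Faf2, an adaptor of p97, was at 135.8, 126.3 and 127.9 CPM against 147.1, 157.6 and 152.8 CPM (log2 fold change -0.23 ± 0.10 SE, edgeR adjusted p = 0.174). Psmb10 was at 412.8, 400.0 and 451.6 CPM against 306.1, 353.7 and 388.9 CPM (log2 fold change 0.27 ± 0.12 SE, edgeR adjusted p = 0.174). Psmf1, Psmg2 and Adrm1, an inhibitor, an assembly chaperone and a ubiquitin receptor, had log2 fold changes of 0.18, -0.18 and 0.08, with edgeR adjusted p-values of 0.343, 0.437 and 0.705.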

How the data were processed

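The authors deposited raw counts per mouse Ensembl gene for 6 libraries. The submitters' processing notes list kallisto and edgeR, and as build GRCh38, which is human, without role or version. How reads were assigned to genes is not stated there. Per the labels' protocols, libraries were made with SMART-Seq v4 and Nextera XT. Symbols came from GENCODE M21 (GRCm38), which left 86 of 23565 identifiers unmatched. Columns name the gate and a number that matches no label, which the columns of Lgr5-CreER libraries 2 and 3 have in common. Library numbers here follow the columns and are names only.

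All 6 libraries were fitted in edgeR 4.0.16 (R 4.3.3) with TMM factors, the default filterByExpr filter, the quasi-likelihood F-test and Benjamini-Hochberg adjustment over 12439 genes at 0.05. The SE is the log2 fold change divided by the root of F, and 95% intervals use the test's degrees of freedom. The biological coefficient of variation was 22.5%. Intervals cover the spread between libraries, and the amplified reads carry no molecular identifiers. Copies were searched with blastn 2.17.0 among the transcripts of GENCODE M21, so copies outside annotated transcripts could not be found.

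Members and lists were chosen with earlier results of these data known. Named genes are the called members, Psmb5, Psmb6 and Psmb7, the highest and lowest log2 fold change in each of Psma, Psmb, Psmc and Psmd, untested members, and in other lists the called genes or the smallest p; other names were chosen after their values were seen. A called gene's result is not reported here. Alternatives were other scalings, DESeq2 1.42.0, limma-voom (limma 3.58.1), other filters, a GC offset and leaving out each library. In simulated data, 200 genes drawn at random from all 12439 were changed. Of genes with a fold of 1.5, 2 and 4, 7.69%, 39.7% and 85.5% were called. The intervals held the true value for 96.9%, 96.8% and 95.2% of them. These rates are for genes of every level and spread, and not for the subunits.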

Additional observations from a re-analysis of the deposited data

How the results depend on the processing

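No proteasome subunit passed the test under any alternative run, and the smallest adjusted p of a subunit ran from 0.0684 (library totals alone) to 0.408. Subunits with an unadjusted p under 0.05 numbered 0 to 4, the most without Hopx-CreER library 1. Subunits with an interval within 1.5-fold numbered 27 (GC offset) to 34 (without Hopx-CreER library 3). Library totals alone moved the median of all genes from -0.0331 to -0.147, and the subunits' median to -0.0356 with 13 of 34 above 0. The median log2 fold change of core subunits was -0.0325 with library totals. That of regulatory genes was -0.0356 with library totals, 0.0377 with upper quartile factors, 0.0672 with no filter, -0.00178 with the GC offset and 0.0452 with 2 Lgr5-CreER columns summed and Hopx-CreER library 3 left out, and 0.0361 to 0.119 with each library left out. Core medians ran from 0.0265 to 0.145 with each library left out. Over all genes, 1586 were called, 1176 higher and 410 lower; leaving out each library gave 723 to 1868, 606 to 1275 and 117 to 593, with the lowest values without Lgr5-CreER library 2 and the highest without Hopx-CreER library 3; leaving out Lgr5-CreER library 1 gave 944 in all, library 3 gave 882, and 218 genes were called lower when Hopx-CreER library 2 was left out. Genes called lower numbered 729 with library totals, 694 with DESeq2 and 1037 with the GC offset. With 2 Lgr5-CreER columns summed because their names have a number in common, which leaves fewer libraries, 790 were called, 659 higher and 131 lower. Other ubiquitin and proteasome genes called numbered 3, and 6 with library totals, 7 with the GC offset, 4 with DESeq2 and 3 to 5 with each library left out. Rad23b was called with library totals (adjusted p = 0.0415), the GC offset (0.0267) and DESeq2 (0.0267), and Faf2 with library totals (0.0488). Nfe2l2 was called without Hopx-CreER library 3, also with the columns summed (adjusted p = 0.0278), and Nqo1 and Mafk were called in each setting. Log2 fold changes turned sign for Psmb7 (-0.0469) and Adrm1 (-0.0375) with library totals, for Psma1 (0.168) and Adrm1 (-0.156) with the GC offset, for Psma1 (0.0224) with the columns summed, for Psmc6 (0.14) and Adrm1 (-0.0221) with Hopx-CreER library 3 also left out, and for Psmb5 (0.0185) with pseudogene counts added. With each library left out, they ran from -0.188 to 0.081 for Psmb5, -0.0048 to 0.125 for Psmb7, -0.0925 to 0.0454 for Psma1, -0.389 to 0.0537 for Psmc6 and -0.0315 to 0.153 for Adrm1. The cause of these shifts was not tested, and none of these 5 genes was called in any setting. The added pseudogene counts, and the columns summed with Hopx-CreER library 3 left out, were chosen after the data were seen. No paired analysis was possible because the columns carry none of the labels' replicate numbers. At 3 libraries per group, folds of 1.5 were mostly not called in simulated data, where 200 genes drawn at random from all tested genes were changed. The subunits had a median SD of log2 CPM of 0.123 against 0.335 for all genes. More genes were called in the real data than were changed in the simulated data. The call rate for the subunits was thus not simulated.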
